A study of Mus musculus with 16 samples.

Results

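The genes described here encode glutamate receptors and the proteins of the postsynaptic density, the protein mesh that holds those receptors opposite the release sites of excitatory synapses. The set holds 38 genes, taken by symbol, and every non-control probe that the scanner files assign to one of them was taken. This gave 64 probes among 55681 on the array, and 38 genes among 34821 gene names. Of the 64 probes, 60 were well above background on all 16 arrays, and 63 entered the tests among 33071 probes in all. The probe left out, A_52_P539692 for Cacng2, was well above background on 0 arrays, and Cacng2 was followed by its other probe.

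The arrays measured total RNA of the whole brain of male C57BL/6J mice, wild type or deficient in Slc5a8, which carries lactate, butyrate and other monocarboxylates into cells along with sodium. Mice were 4 or 18 months old, and each of the 4 groups had 4 biological replicates, 1 array each. The labels give no promoter, allele or cell type for the deficiency, and their strain and age entries are interchanged. The study asked how the transcriptome differed between deficient and wild-type brain and with age. The Slc5a8 probe of the array (A_51_P107315) was well above background on 0 arrays, in wild type as in deficient mice, so it does not check the genotype labels.

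Glutamate acts on ion channels of the AMPA, NMDA and kainate families and on G-protein-coupled metabotropic receptors. AMPA receptors carry most of the fast current, and NMDA receptors admit calcium when the membrane is already depolarised, which sets off the plasticity that calcium/calmodulin-dependent kinase II relays. Scaffolds of the PSD-95, SAPAP, SHANK and Homer families stack beneath the receptors and link them to the kinase, to metabotropic receptors and to actin.

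A level is the log2 processed signal minus the 75th percentile of that array, so levels of the same probe can be compared across arrays but levels of different probes cannot. Differences are log2 values ± the standard error from limma, with n = 4 mice per group. A probe was called when its p, adjusted by the Benjamini-Hochberg method over all 33071 probes, was under 0.05. The pooled standard deviation within groups had a median of 0.24 over the 63 probes and ran from 0.11 (Grm8) to 2.31 (Shank2, A_55_P1984401). Slide 1 held all wild-type and slide 2 all deficient arrays, and the effects of slide and of genotype cannot be told apart. Within each genotype the ages lay on different rows of the slide, so age and row cannot be told apart there, while the age difference averaged over both genotypes is balanced over rows. Young wild type and old deficient lay on row 2 and the other groups on row 1, so the interaction and the row cannot be told apart either. A genotype difference at a single age is likewise also a difference of row, while the genotype difference averaged over both ages is balanced over rows. In whole tissue, fewer cells of a type and less RNA per cell cannot be told apart.

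The tissue label was checked against marker lists. All 10 pan-neuronal markers and all 8 astrocyte and 8 oligodendrocyte markers were well above background on all 16 arrays. Markers of brain regions moved with the groups: the 12 probes for 11 Hox genes of hindbrain and spinal cord were all lower at 18 months in both genotypes and all higher in deficient mice at both ages, with 10 called lower in the age difference averaged over genotypes and 8 called higher in the averaged genotype difference. None of the 11 Hox genes was well above background on all 16 arrays. Blood markers were lower with age in deficient mice for 5 of 5 probes, all called (median -2.25), and 3 of the 5 were called lower in deficient mice at 18 months. Olfactory bulb markers were lower with age for 6 of 7 probes in wild type and 7 of 7 in deficient mice, with 2 called in each. Pituitary markers were lower with age for 5 of 5 probes in wild type (median -6.60) and in deficient mice (median -3.07). Cga was called in the averaged age difference. Choroid plexus markers were lower in young deficient mice for 11 of 12 probes (median -0.71), with 0 called. Oligodendrocyte precursor markers were lower with age for 4 of 6 probes and higher for 2 in each genotype, and lower in deficient mice at 18 months for 6 of 6. In each of these comparisons Gpr17 was the 1 probe called. Of 13 oligodendrocyte probes 1 was called higher (Mobp, 0.97) and 1 lower (Opalin, -0.54) in deficient mice at 18 months. Striatal markers were higher in deficient mice at 18 months for 13 of 13 probes, and microglia markers were higher with age in wild type for 13 of 13 and lower in deficient mice at 18 months for 13 of 13. Limma called 0 of them, and at an unadjusted p under 0.05 it gave 1 striatal probe higher at 18 months, 3 microglia probes higher with age in wild type and 5 lower in deficient mice at 18 months. The part of these markers in the differences below was not tested. Array 1 of the young deficient group stood apart from the rest in a principal component analysis over all tested probes.

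Of the 38 genes 6 had a called probe in at least 1 of the comparisons: the AMPA receptor subunit Gria2, the NMDA receptor subunits Grin2c and Grin3a, the kainate receptor subunit Grik1, and the scaffolds Shank2 and Homer2. For 4 of them (Grin3a, Grik1, Shank2 and Homer2) the gene's other probe was not called. The other Gria2 probe was not called either, though its differences were of the same sign and similar size, and Grin2c had 1 probe. At 4 months 1 of 63 probes was called between genotypes (1.59%, against 1.43% of all tested probes), 0 higher and 1 lower in deficient mice, where 0.599% of all probes were called higher and 0.832% lower. At 18 months 1 was called, higher in deficient mice (1.59%, against 1.35% of all probes, 0.85% higher and 0.505% lower). Averaged over both ages 3 were called, 1 higher and 2 lower (4.76%, against 3.12% of all, 1.66% higher and 1.47% lower). With counts of 1 to 3 probes, none of these shares is read as particular to the set. The share of all genes with a call in at least 1 comparison was not counted, so 6 of 38 is not read as particular either.

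With age, 1 of 63 probes was called lower in wild type (1.59%, against 0.375% of all probes, 0.139% higher and 0.236% lower). In deficient mice 1 was called higher and 1 lower (3.17%, against 2.1% of all, 1.17% higher and 0.934% lower), and averaged over genotypes 1 was called lower (1.59%, against 1.45%, 0.632% higher and 0.822% lower). The genotype difference itself differed between the ages for 1 probe, upward (1.59%, against 0.236% of all, 0.157% upward and 0.0786% downward). At an unadjusted p under 0.05 the 63 probes and all probes stood at 27% and 17.2% for genotype at 4 months, 6.35% and 10% at 18 months, 3.17% and 6.3% for age in wild type, 20.6% and 20.4% for age in deficient mice, 9.52% and 10.8% for the interaction, 14.3% and 15.1% for averaged genotype and 20.6% and 14.6% for averaged age. Each genotype comparison shares groups of arrays with the age comparisons, the interaction and the averages, so the calls are not all independent of each other.

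**Figure D1:**
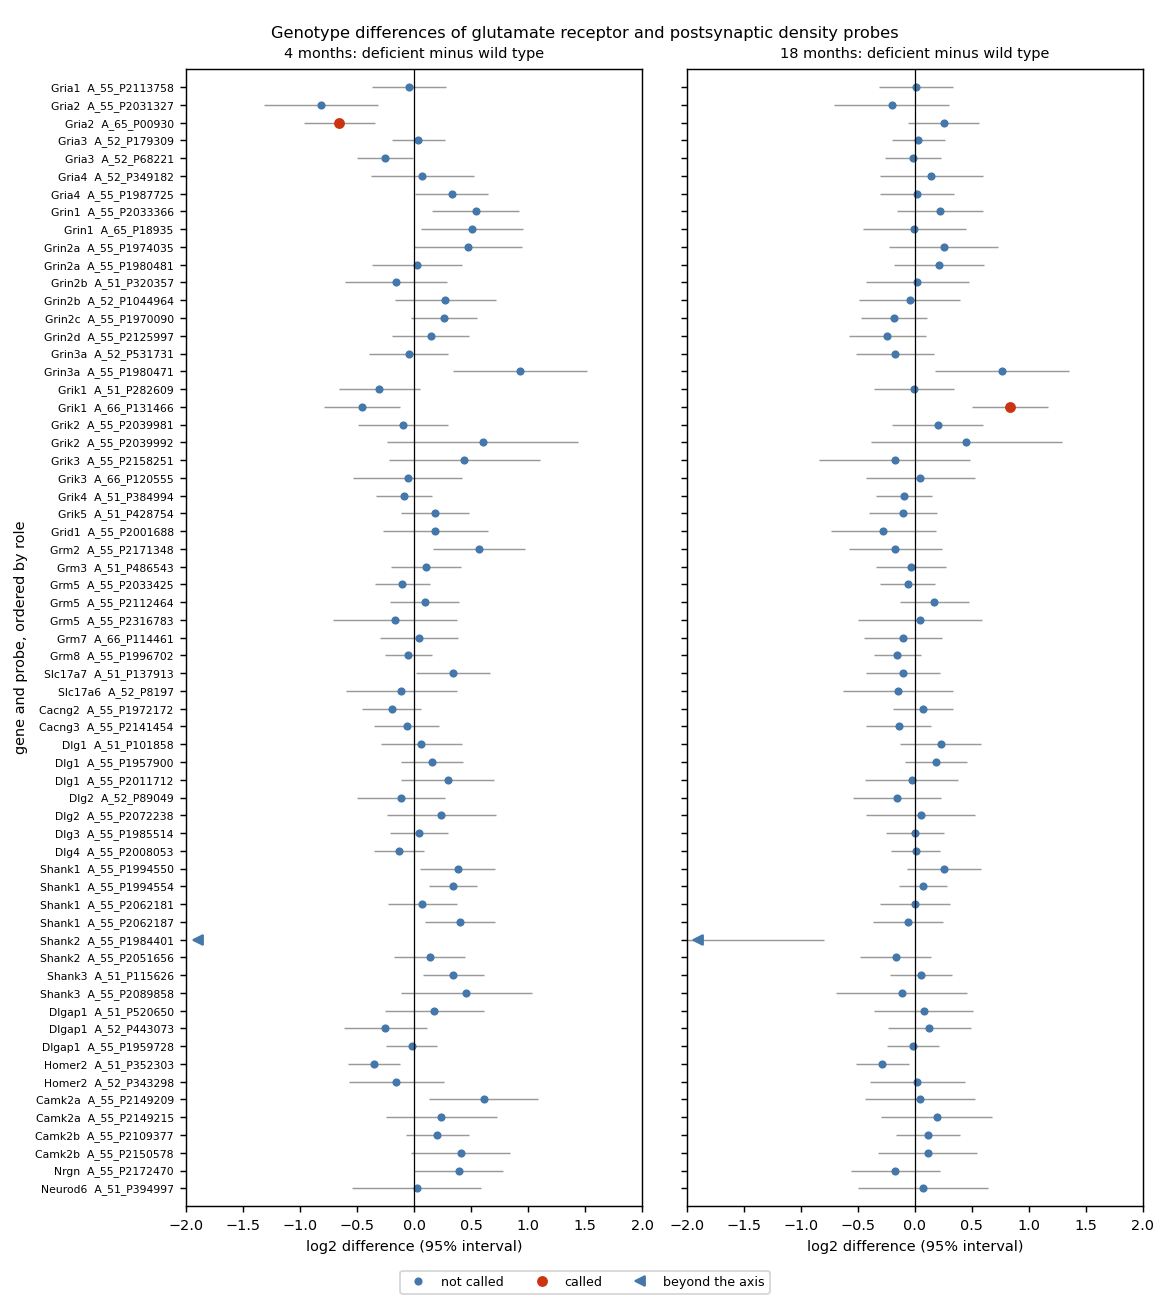
Log2 difference between Slc5a8-deficient and wild-type mice at 4 months (left) and 18 months (right) for each of the 63 tested probes, ordered by role, with 95% intervals from limma (n = 4 mice per group). The called probes (large points) are Gria2 A_65_P00930 at 4 months and Grik1 A_66_P131466 at 18 months, and the Shank2 probe A_55_P1984401 lies beyond the axis at both ages (-5.60 and -3.93).

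Among the AMPA receptor subunits, Gria2 mRNA was lower in young deficient than in young wild-type brain and higher in old than in young deficient brain. Gria2 encodes the subunit whose RNA-edited form makes AMPA receptors nearly impermeable to calcium. Probe A_65_P00930 read 0.14, -0.12, -0.13 and -0.29 in young wild type and -0.88, -0.56, -0.76 and -0.84 in young deficient mice. It read -0.57, -0.17, -0.01 and -0.72 in old wild type and -0.01, -0.15, -0.17 and -0.14 in old deficient mice. All 4 young deficient arrays therefore lay below the 4 young wild-type and the 4 old deficient arrays, and only the old wild-type group overlapped them.

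The young genotype difference of this Gria2 probe was -0.66 ± 0.15 (1.58-fold lower, limma adjusted p = 0.0396), and its age difference in deficient mice was 0.64 ± 0.15 (1.56-fold higher, limma adjusted p = 0.0369). The 2 calls share the 4 young deficient arrays. Both compare row 1 (young deficient) with row 2 (young wild type or old deficient), so neither difference can be told apart from the slide row. The other Gria2 probe, A_55_P2031327, read -0.73, -0.06, -0.40 and -0.40 in young wild type against -2.02, -0.76, -1.26 and -0.82 in young deficient mice, again with no overlap. It read -0.14, -0.40, -0.24 and -0.27 in old wild type and -0.81, -0.14, -0.56 and -0.36 in old deficient mice. Its differences were -0.82 ± 0.24 (limma adjusted p = 0.098) and 0.75 ± 0.24 (adjusted p = 0.103), of the same sign and similar size but not called. The change of the genotype difference with age, 0.91 ± 0.21 for A_65_P00930, was not called (limma adjusted p = 0.112). The young genotype call was lost without any 1 of the 4 young wild-type arrays, the 4 old deficient arrays or young deficient arrays 1, 3 and 4 (adjusted p up to 0.126). The deficient age call was lost without any old deficient array, young deficient arrays 1, 3 and 4 or young wild-type array 3 (adjusted p up to 0.106). With normexp both fell short of the threshold (-0.55, adjusted p = 0.0648, and 0.57, adjusted p = 0.0524), as they did with no filter on dim probes (adjusted p = 0.108 and 0.105).

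The 2 Gria2 probes lie on chromosome 3, minus strand (NCBI37/mm9), at chr3:80495725-80495784 for A_65_P00930 and chr3:80488858-80488917 for A_55_P2031327, at positions 3120 and 6781 of the transcripts that the scanner files name. They therefore read different stretches of the message, which is why a window of each is shown. Each window is 30 of the 60 bases, 5′ to 3′ as printed on the array, with the longest run of A and G in capitals.
Gria2 A_65_P00930: tattccttGGGGAAAAAAGAAtgcactttg
Gria2 A_55_P2031327: taatggcaatctGGAGGtccatctacataa

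The other AMPA subunits had no called probe. Gria1, the subunit inserted during long-term potentiation, had 1 probe at 0.37 ± 0.15 between old and young deficient mice, with no overlap of the groups (limma adjusted p = 0.194). Both Gria3 probes were above 0 with age in both genotypes (0.29 and 0.09 in wild type, 0.28 and 0.33 in deficient mice), and for A_52_P179309 the averaged age difference was 0.28 ± 0.08 (limma adjusted p = 0.0943).

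Gria4, a subunit abundant in cerebellum, had 2 probes whose age differences had opposite signs. A_55_P1987725 read 3.99, 3.46, 3.29 and 3.71 in young deficient and 3.16, 2.93, 3.20 and 3.08 in old deficient mice, a difference of -0.52 ± 0.15 without overlap (limma adjusted p = 0.0844). A_52_P349182 gave 0.20 (adjusted p = 0.607) in the same comparison. Neither was called.

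Among the NMDA receptor subunits, Grin2c was lower at 18 than at 4 months in deficient mice. Grin2c encodes GluN2C, the subunit that cerebellar granule cells take up as they mature. Its probe, A_55_P1970090 (chr11:115110483-115110542, minus strand, NCBI37/mm9), read 3.56, 3.76, 3.53 and 3.87 in young deficient and 3.23, 2.77, 3.14 and 2.86 in old deficient mice, so the groups did not overlap. In wild type it read 3.49, 3.22, 3.59 and 3.37 at 4 months and 3.12, 3.15, 3.44 and 3.01 at 18 months, and these overlapped.

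The age difference of Grin2c was -0.68 ± 0.14 in deficient mice (1.60-fold lower, limma adjusted p = 0.0193) and -0.24 ± 0.14 in wild type (limma adjusted p = 0.945). The difference between them, -0.44 ± 0.19, was not called (adjusted p = 0.43), and the age difference averaged over genotypes was -0.46 ± 0.10 (adjusted p = 0.0266). Without old deficient array 2 the deficient difference was -0.60 (adjusted p = 0.0755), and without array 4 it was -0.63 (adjusted p = 0.0621). The deficient call was also lost with no filter on dim probes and in the fit of only the 2 groups compared. The averaged difference was not called without young wild-type arrays 1 or 3, young deficient 2 or 4, old wild-type 1 or 4 or old deficient 2 or 4 (adjusted p up to 0.0688). It was not called with slide as a fixed term beside age either (adjusted p = 0.0605), nor with no filter on dim probes. As slide equals genotype, the former is a fit of genotype and age without their interaction.

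Cerebellar markers moved in the same comparisons. All 10 genes of the cerebellar granule and Purkinje cell list were well above background on all 16 arrays. Their 16 probes were all lower with age in deficient mice (median -0.56), and 15 of 16 were lower in wild type (median -0.27), with 0 called by limma in either and 10 and 0 at an unadjusted p under 0.05. The median marker level of an array, relative to each marker's mean, ran from 0.03 to 0.82 in young deficient and from -0.49 to -0.07 in old deficient mice, and from -0.39 to 0.27 and -0.53 to 0.27 in young and old wild type. The part of the cerebellar markers in the Grin2c and Gria4 differences was not tested.

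**Figure D2:**
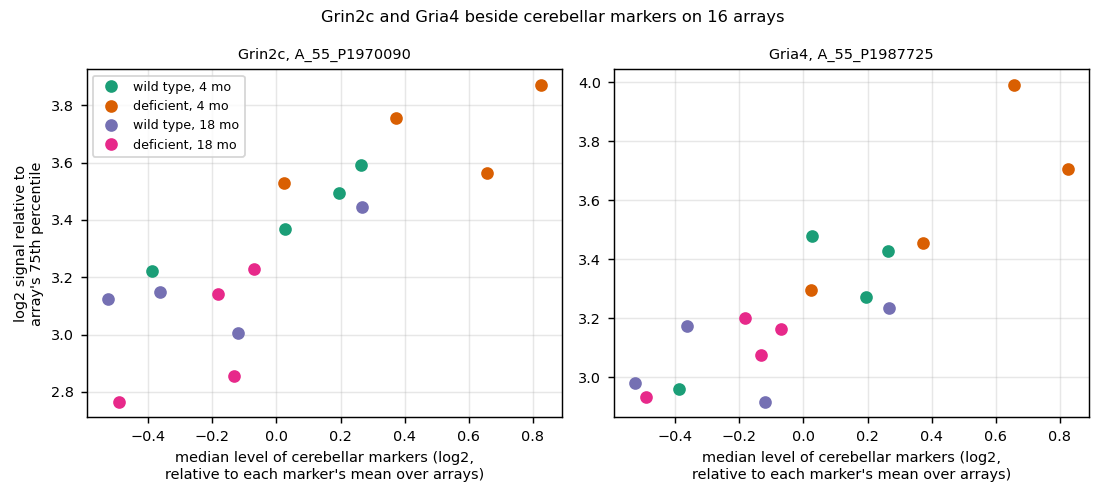
Level of Grin2c (left) and of Gria4 probe A_55_P1987725 (right) against the median level of 10 cerebellar marker genes on each of the 16 arrays (log2 axes, 1 point per mouse, coloured by group). The 4 young deficient arrays lie at marker levels between 0.03 and 0.82 and the 4 old deficient arrays between -0.49 and -0.07, and the wild-type arrays of both ages overlap both ranges.

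Grin3a encodes GluN3A, a subunit that lowers the calcium permeability of NMDA receptors, and 1 of its 2 probes was higher in deficient mice. A_55_P1980471 read -1.80, -2.04, -1.89 and -1.51 in young wild type and -0.14, -0.68, -0.84 and -1.87 in young deficient mice. At 18 months it read -1.56, -1.35, -1.86 and -2.15 in wild type and -1.10, -0.76, -0.92 and -1.08 in deficient mice. The groups were separate at 18 months, and at 4 months young deficient array 4 lay among the wild-type arrays.

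Averaged over ages the difference of this probe was 0.85 ± 0.20 (1.80-fold higher, limma adjusted p = 0.0283), and within the ages it was 0.93 ± 0.28 (adjusted p = 0.11) and 0.76 ± 0.28 (adjusted p = 0.284). The other probe, A_52_P531731, gave -0.11 ± 0.11 averaged over ages (adjusted p = 0.733). It read 0.61 to 1.13 in young wild type, 0.30 to 0.90 in young deficient, 0.50 to 1.11 in old wild type and 0.50 to 0.74 in old deficient mice, all overlapping. The genotype differences of the 2 probes were apart by 0.96. The Grin3a call held only without young wild-type array 4, young deficient 1 or 4, old wild-type 1 or 2 or old deficient 1, and was lost without any of the others (adjusted p up to 0.0627).

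The 2 Grin3a probes lie on the minus strand of chromosome 4 (NCBI37/mm9), at chr4:49678098-49678157 for A_55_P1980471 (position 3288 of its RefSeq transcript) and chr4:49674688-49674747 for A_52_P531731 (position 7226 of an Ensembl transcript). A window of each is shown because the 2 disagree, with the longest run of A and G in capitals.
Grin3a A_55_P1980471: gtaagcAGGAAGAcagagcttgaggagtat
Grin3a A_52_P531731: cagtcattttatGAAAAtgaagtgcttcta

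The remaining NMDA subunits had no called probe. Grin1, the subunit every NMDA receptor needs, had 2 probes with young genotype differences of 0.54 ± 0.18 (limma adjusted p = 0.142) and 0.50 ± 0.21 (adjusted p = 0.237). A_55_P2033366 read -2.69 to -2.07 in young wild type and -2.33 to -1.58 in young deficient mice, which overlap. The second, A_65_P18935, read 2.43 to 2.89 in young wild type and 3.84, 2.94, 2.91 and 2.73 in young deficient mice, which also overlap. Its reading of 3.84 comes from young deficient array 1, which stood apart over all probes. Of the 10 NMDA probes 8 were above 0 in the young genotype difference, with a median of 0.27. Of all tested probes 53.6% were above 0, with a median of 0.02. Grin2a and Grin2b, the main partners of Grin1 in the adult forebrain, had averaged age differences of at most 0.41 (Grin2b A_51_P320357, adjusted p = 0.208).

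**Figure D3:**
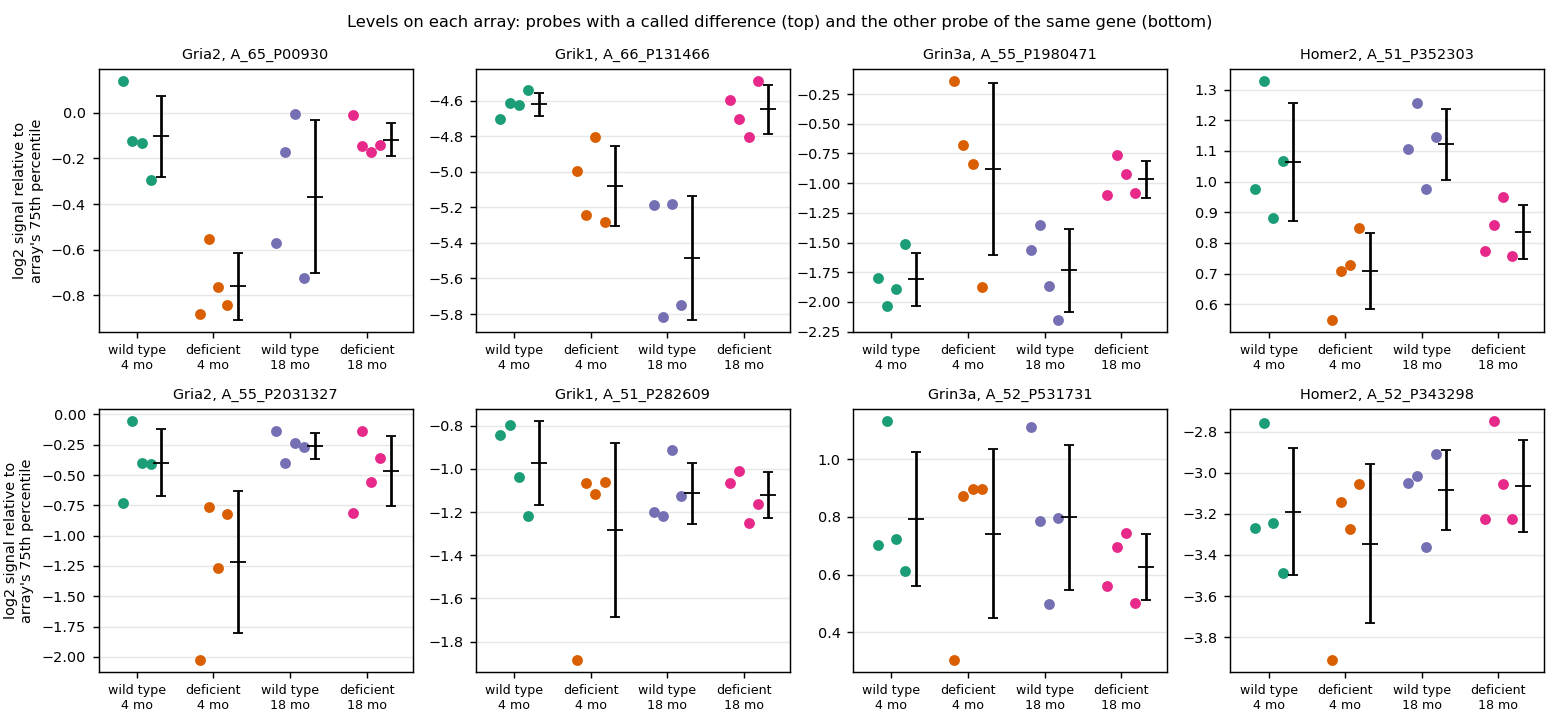
Levels on each of the 16 arrays for 4 genes with a called probe (top) and their other probe (bottom), in log2 units relative to each array's 75th percentile. Points are mice, bars give the group mean ± SD (n = 4), and each panel has its own axis. The 2 Gria2 probes both sit lowest in young deficient mice, while the group pattern of the upper Grik1, Grin3a and Homer2 panels is not seen in the lower ones.

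Among the kainate receptor subunits, Grik1 (GluK1) gave the only called change of a genotype difference with age among the 63 probes, through its dim probe A_66_P131466. This probe read -4.70, -4.61, -4.62 and -4.54 in young wild type and -4.99, -5.24, -4.80 and -5.28 in young deficient mice. At 18 months it read -5.18, -5.82, -5.18 and -5.75 in wild type and -4.60, -4.70, -4.81 and -4.49 in deficient mice. All 8 arrays of row 2 (young wild type and old deficient) lay above the 4 old wild-type arrays of row 1, and the young wild-type arrays lay above the young deficient ones, so the interaction of this probe cannot be told apart from the slide row.

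The genotype difference of this Grik1 probe was -0.46 ± 0.15 at 4 months (limma adjusted p = 0.149) and 0.83 ± 0.15 at 18 months (1.78-fold higher, adjusted p = 0.0117). The age difference in wild type was -0.86 ± 0.15 (1.82-fold lower, adjusted p = 0.0208), and the interaction was 1.30 ± 0.22 (adjusted p = 0.021). The probe exceeded background clearly on every young wild-type and old deficient array, but on 3 of 4 young deficient and 2 of 4 old wild-type arrays. With the background corrected by normexp the old genotype difference was 0.16 (adjusted p = 0.988), the wild-type age difference -0.17 (adjusted p = 1) and the interaction 0.25 (adjusted p = 0.786). In the deposited value table they were 0.28, -0.34 and 0.54, and not called. The old genotype call held in all 16 fits that left out 1 array (adjusted p up to 0.0478). Those fits kept the same filter, which the probe passed through the groups where it is high, so they lend the call no support. The old genotype and wild-type age calls were both lost in fits of only the 2 groups compared and with the mean of the gene's probes. The wild-type age call was lost without any young wild-type array or old wild-type arrays 2 or 4 (adjusted p up to 0.0871), and the interaction without young wild-type 3 or 4, young deficient 2 or old deficient 1, 2 or 4 (adjusted p up to 0.0607).

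The other Grik1 probe, A_51_P282609, was well above background on all arrays and read -1.20, -1.22, -0.91 and -1.12 in old wild type and -1.07, -1.01, -1.25 and -1.16 in old deficient mice. Its old genotype difference was -0.01 ± 0.17 (limma adjusted p = 0.995). The 2 probes were apart by 0.84 in the old genotype difference and by -0.72 in the wild-type age difference, a description only, since the dim probe passed the filter through young wild type and old deficient mice, where it is high, and was well above background on 13 of 16 arrays. The dim probe is assigned to an Ensembl transcript (chr16:87912812-87912871) and the bright one to a RefSeq transcript (chr16:87896231-87896290), both on the minus strand (NCBI37/mm9). A window of each is shown to let the 2 be told apart, with the longest run of A and G in capitals.
Grik1 A_66_P131466: actccaggctctcaggtcAGGAGGctggaa
Grik1 A_51_P282609: tagatattacttGAGGAGtgaaactgaatc

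The other kainate subunits (Grik2 to Grik5) and the delta receptor Grid1 had 7 probes and no call. In the 4 comparisons of single groups their differences were largest for Grik2 A_55_P2039992 (0.60 at 4 months, limma adjusted p = 0.451) and Grik3 A_55_P2158251 (0.52 with age in wild type, adjusted p = 0.971), which also had the widest spread within groups after Shank2, with pooled standard deviations of 0.61 and 0.48.

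Of the metabotropic receptors (Grm2, Grm3, Grm5, Grm7 and Grm8, 7 probes) none was called by limma in any comparison, and 0 to 2 had an unadjusted p under 0.05. The 2 were for averaged age, where 14.6% of all tested probes had such a p. Grm2, a presynaptic receptor that damps glutamate release, came nearest. It read -0.40, -0.31, -0.24 and 0.10 in young wild type, 0.90, 0.28, 0.17 and 0.06 in young deficient, -0.36, 0.42, -0.24 and 0.09 in old wild type and -0.34, -0.18, -0.13 and -0.14 in old deficient mice. The young deficient mean was the highest, and all 4 young deficient arrays lay above the old deficient ones but overlapped both wild-type groups, with differences of 0.57 ± 0.19 at 4 months (limma adjusted p = 0.15) and -0.55 ± 0.19 with age in deficient mice (adjusted p = 0.135). All 7 metabotropic probes were above 0 with age in wild type, between 0.06 (Grm8) and 0.22 (Grm5), as were 51.5% of all tested probes.

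The vesicular glutamate transporters load glutamate into synaptic vesicles, Slc17a7 mainly in cortex, hippocampus and cerebellum and Slc17a6 mainly in thalamus and brainstem. Slc17a7 read 1.38, 1.82, 1.41 and 1.45 in young wild type and 1.43, 2.09, 1.96 and 1.94 in young deficient mice, an overlap with a difference of 0.34 ± 0.15 (limma adjusted p = 0.268). It read 1.86, 1.62, 1.57 and 2.04 in old wild type and 1.51, 1.75, 1.75 and 1.67 in old deficient mice. Slc17a6 had differences between -0.15 and -0.05 in the 4 comparisons of single groups.

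Cacng2 and Cacng3 encode stargazin and its relative, auxiliary subunits that carry AMPA receptors to the synapse. Cacng2 A_55_P1972172 read 3.1, 3.01, 3.14 and 3.02 in young wild type, 2.73, 3.08, 2.76 and 2.91 in young deficient, 2.77, 2.83, 3.25 and 2.73 in old wild type and 2.92, 2.86, 3.16 and 2.91 in old deficient mice. The groups overlapped, and the young genotype difference was -0.20 (limma adjusted p = 0.421). The Cacng3 differences lay between -0.14 and 0.11.

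The membrane-associated guanylate kinases Dlg1 to Dlg4 (SAP97, PSD-93, SAP102 and PSD-95) bind receptor tails and anchor them. Dlg4, the most abundant of these scaffolds at excitatory synapses, had differences between -0.14 and 0.11 in the 4 comparisons of single groups and was not called in any of the 7. The Dlg1 probe A_55_P1957900 had the smallest p of the 7 probes: it read 1.21, 1.20, 1.15 and 1.48 in young wild type, 1.47, 1.66, 1.25 and 1.26 in young deficient, 1.46, 1.21, 1.59 and 1.30 in old wild type and 1.39, 1.63, 1.5 and 1.78 in old deficient mice. The groups overlapped, and the averaged genotype difference was 0.17 (adjusted p = 0.415).

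Shank2, a master scaffold that links SAPAP to Homer and actin, had the largest difference of the set, seen by 1 of its 2 probes. A_55_P1984401 read -0.76, -0.89, -0.65 and -0.64 in young wild type and -1.23, -0.30, -0.24 and -1.55 in old wild type, well above background on all 8. It read -6.52, -8.03, -8.60 and -2.21 in young deficient and -7.59, -1.60, -8.08 and -1.78 in old deficient mice. All 8 deficient arrays lay below all 8 wild-type arrays, by a narrow margin between old deficient array 2 (-1.60) and old wild-type array 4 (-1.55).

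The deficient arrays fell into a dim and a brighter set: 5 were not well above background, and 3 (young deficient array 4 and old deficient arrays 2 and 4) were. The averaged genotype difference was -4.77 ± 1.04 (limma adjusted p = 0.02), with -5.60 ± 1.47 at 4 months (adjusted p = 0.0743) and -3.93 ± 1.47 at 18 months (adjusted p = 0.31). Because 5 arrays were at background the size of this difference depends on how background is handled: it was -2.38 with normexp and -2.81 in the deposited value table, called in both. The call held in all 16 fits that left out 1 array (-5.46 to -4.22). Those fits kept the same filter, which the probe passed through the wild-type groups, where it is high, so they lend the call no support. With no filter on dim probes the call was lost (limma adjusted p = 0.0519). Of all tested probes, 0.931% separated the 8 deficient from the 8 wild-type arrays without overlap, and of the 63 probes this was the only one (1.59%).

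The other Shank2 probe, A_55_P2051656, did not follow it. It read -3.55, -3.25, -3.45 and -3.46 in young wild type, -3.35, -3.01, -3.51 and -3.29 in young deficient, -3.68, -3.25, -2.93 and -3.44 in old wild type and -3.39, -3.43, -3.63 and -3.54 in old deficient mice. All 4 groups overlapped, and the averaged genotype difference was -0.02 ± 0.10, with a 95% interval from -0.24 to 0.20 (limma adjusted p = 0.966). The genotype differences of the 2 probes were apart by -4.75. The disagreement of the Shank2 probes was known when the set was chosen, so it is given as a description with no test.

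Both Shank2 probes lie on the plus strand of chromosome 7 (NCBI37/mm9), A_55_P1984401 at chr7:151610225-151610284 and A_55_P2051656 at chr7:151606981-151607040. The scanner files place the first at position 7994 of an Ensembl transcript and the second at position 4759 of a RefSeq transcript. The windows are shown because the first probe holds an unbroken run of 26 purines (A or G, in capitals), a length reached by 103 of the 55681 probes on the array (0.185%), while the longest run of the second is 8 (22.9% of probes have one as long). The part of this run in the readings was not tested.
Shank2 A_55_P1984401: ttAGAAGGAGAGAGAGGAAGAGGGAGAGtg
Shank2 A_55_P2051656: aggatgaacatAGAAAGGGctttgaaacag

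**Figure D4:**
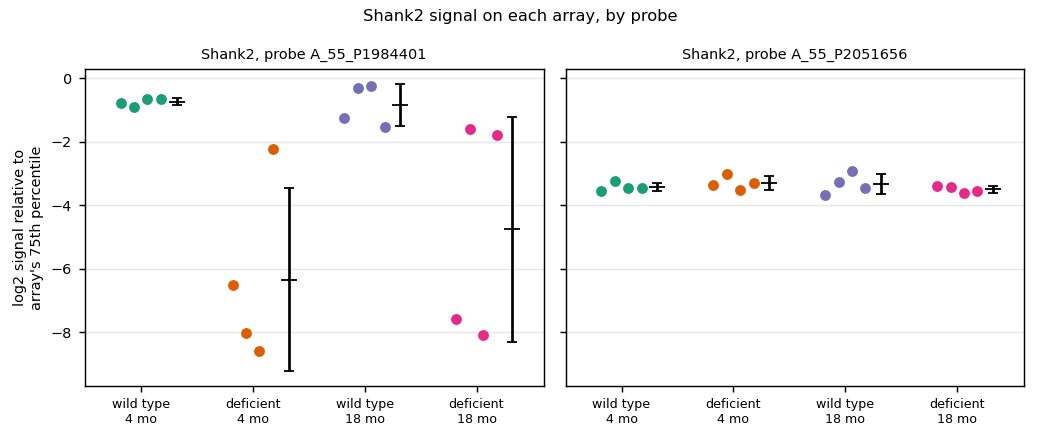
Shank2 levels on each of the 16 arrays by probe, in log2 units relative to the array's 75th percentile, with group mean ± SD (n = 4). Probe A_55_P1984401 (left) splits the 8 deficient arrays into 5 near background (-8.60 to -6.52) and 3 between -2.21 and -1.60, whereas probe A_55_P2051656 (right) lies between -3.68 and -2.93 on all arrays.

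Homer2, an adaptor that ties SHANK to group I metabotropic receptors, was lower in deficient mice by 1 of 2 probes. A_51_P352303 (chr7:88756199-88756258, minus strand, NCBI37/mm9) read 0.98, 1.33, 0.88 and 1.07 in young wild type against 0.55, 0.71, 0.73 and 0.85 in young deficient mice. At 18 months it read 1.11, 1.26, 0.98 and 1.14 in wild type and 0.78, 0.86, 0.95 and 0.76 in deficient mice. The genotypes did not overlap at either age.

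The averaged Homer2 difference was -0.32 ± 0.08 (1.25-fold lower, limma adjusted p = 0.035), with -0.35 ± 0.11 at 4 months (adjusted p = 0.12) and -0.29 ± 0.11 at 18 months (adjusted p = 0.33). The other probe, A_52_P343298 (chr7:88747163-88747222), gave -0.07 ± 0.14 (adjusted p = 0.888), with levels between -3.91 and -2.75 that overlapped in all groups. The 2 probes were apart by -0.25. The call held only without young wild-type array 3, young deficient 1 or 4, old wild-type 3 or old deficient 3, and was lost without any of the others (adjusted p up to 0.0807).

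The other scaffolds of this layer had no call. Shank1, another scaffold of the SHANK family, had 4 probes between 0.07 and 0.40 at 4 months. A_55_P1994554 read -0.98, -0.72, -0.85 and -0.69 in young wild type and -0.35, -0.38, -0.60 and -0.56 in young deficient mice, without overlap (0.34 ± 0.10, limma adjusted p = 0.105). Shank3 A_51_P115626 differed by 0.34 ± 0.13 at 4 months with overlap (adjusted p = 0.186). Of the 3 probes for Dlgap1, the SAPAP that joins PSD-95 to SHANK, the largest difference was 0.48 ± 0.17 with age in deficient mice (A_52_P443073, adjusted p = 0.141).

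Camk2a and Camk2b encode the kinase II subunits, and Nrgn encodes neurogranin, which holds calmodulin at rest. Camk2a A_55_P2149209 read 0.45, 0.85, 0.73 and 1.42 in young wild type, 1.86, 1.71, 1.20 and 1.11 in young deficient, 0.97, 1.35, 1.63 and 1.02 in old wild type and 1.0, 1.34, 1.22 and 1.58 in old deficient mice. The groups overlapped (0.61 ± 0.23 at 4 months, limma adjusted p = 0.189), and the other Camk2a probe gave 0.24 (adjusted p = 0.623). All 5 probes of these 3 genes were above 0 in the genotype difference at 4 months, between 0.20 and 0.61, as were 53.6% of all tested probes.

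Neurod6, a transcription factor of cortical and hippocampal pyramidal neurons, differed by at most 0.26 in the 4 comparisons of single groups. It read 0.56, 1.43, 1.04 and 0.54 in young wild type, 0.02, 1.56, 0.89 and 1.17 in young deficient, 0.94, 0.93, 1.31 and 1.23 in old wild type and 1.03, 1.35, 1.21 and 1.11 in old deficient mice. The 2 young groups were more spread than the old ones, and all 4 overlapped.

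In wild type 53 of 63 probes had a higher mean at 18 than at 4 months, against 51.5% of all tested probes, with a median difference of 0.12 against 0.01 over all. Only 1 of them had an unadjusted p under 0.05 and was higher, and only 1 was called, lower. Young wild-type array 1 lay below its group's mean for 51 of the 63 probes, and without it the share of probes higher with age was 76.2%. In deficient mice 36 of 63 were higher, against 49.7% of all tested probes, with a median of 0.06. Markers of cortical and hippocampal excitatory neurons were higher with age in wild type for 13 of 15 probes (median 0.17), with 0 called by limma and 1 at an unadjusted p under 0.05, and their part in the pattern was not tested.

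**Figure D5:**
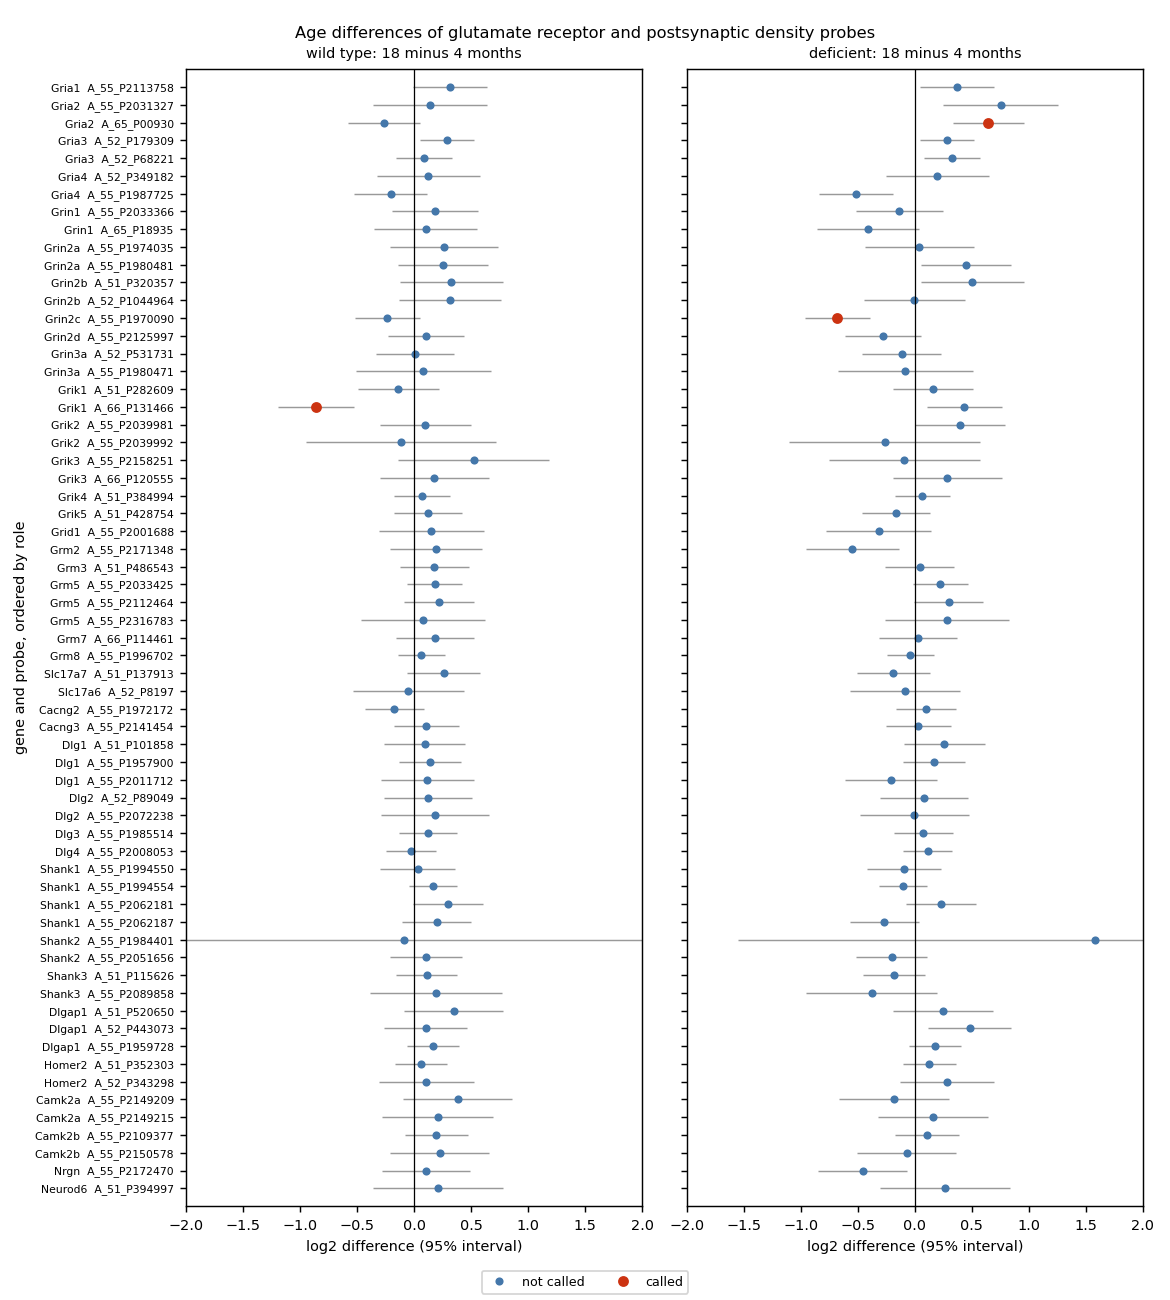
Log2 difference between 18 and 4 months in wild-type (left) and Slc5a8-deficient mice (right) for each of the 63 tested probes, ordered by role, with 95% intervals from limma (n = 4 mice per group). Most wild-type points lie just right of 0 (53 of 63) with intervals that cover it, the intervals of Shank2 A_55_P1984401 run past the axis, and the called probes are Grik1 A_66_P131466 in wild type and Gria2 A_65_P00930 and Grin2c in deficient mice.

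The precision of the arrays limits what could be seen. The median standard error was 0.17 within a pair of groups and 0.12 for the averaged differences. The 95% interval lay within 1.5-fold in either direction for 30 of 63 probes between genotypes at 4 months, for 46 at 18 months, for 40 with age in wild type and for 32 in deficient mice. For the averaged genotype difference this was so for 55 probes. Groups did not overlap for 7 probes at 4 months (11.1%, against 9.41% of all probes), 4 at 18 months (6.35%, against 8.04%), 3 with age in wild type (4.76%, against 3.53%) and 7 with age in deficient mice (11.1%, against 17.4%).

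Several probes were kept for 20 of the 38 genes. All probes of a gene had the same sign in 11 of 20 genes for the young genotype difference, 6 for the old one, 16 for wild-type age and 10 for deficient age. The median gap between the probes of a gene was 0.31 and 0.22 for genotype at 4 and 18 months and 0.16 and 0.29 for age in wild type and in deficient mice, beside a median standard error of 0.17.

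Other genes of the pathway were read from lists of glutamate receptors and transporters, auxiliary and trafficking proteins, scaffold and signalling proteins, and postsynaptic adhesion molecules. Of 10 receptor and transporter probes 1 was called lower with age in deficient mice, beside 0.934% of all tested probes. With a count of 1 this is not read as particular to the list. The probe was A_55_P2073682 for Grm4, a presynaptic receptor of cerebellar parallel fibres, at -0.77 ± 0.15 (limma adjusted p = 0.0162). It was also called in the averaged age difference (-0.44, adjusted p = 0.0486), where 0.822% of all probes were called lower. Group means of this probe were 0.05 and 0.64 in young wild-type and deficient mice and -0.07 and -0.13 in the old ones. Another Grm4 probe, A_55_P2010376, had means of -0.82 and -1.07 in the young and -1.24 and -1.60 in the old ones. At 4 months it was thus lower in deficient mice, where the first was higher. Its averaged age difference was -0.47 ± 0.16 (limma adjusted p = 0.181). With age both probes moved in the same direction as the cerebellar markers given above, whose part was not tested.

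Of 53 scaffold and signalling probes 1 was called higher and 1 lower with age in deficient mice, beside 1.17% and 0.934% of all tested probes. Lrrc7 (densin-180, a scaffold that binds kinase II) was higher by 0.93 ± 0.21 (limma adjusted p = 0.0354), and Homer3, the Homer protein of Purkinje cells, was lower by -0.89 ± 0.22 (A_51_P466613, adjusted p = 0.0477). Another Homer3 probe, A_55_P2167461, was not lower with age there, with means of -3.45 in young and -3.34 in old deficient mice. Averaged over ages it was higher in deficient than in wild-type mice (0.76 ± 0.17, limma adjusted p = 0.0225), and A_51_P466613 was not called in that comparison. In this list 42 of 53 probes were higher with age in wild type (median 0.08) and 37 of 53 in deficient mice (median 0.08). Of all tested probes 51.5% and 49.7% were higher in these comparisons.

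None of 30 probes for auxiliary and trafficking proteins was called by limma in any comparison, with 0 to 8 at an unadjusted p under 0.05. The 8 were for age in deficient mice, where 20.4% of all tested probes had such a p. Nptx2 (neuronal pentraxin 2, which clusters AMPA receptors) differed by 0.70 between genotypes at 18 months (limma adjusted p = 0.0673), and Cacng5 (an AMPA receptor auxiliary subunit) by -0.46 with age in deficient mice (adjusted p = 0.0696). None of 25 probes for postsynaptic adhesion was called by limma, with 0 to 5 at an unadjusted p under 0.05. The 5 were for averaged age, where 14.6% of all tested probes had such a p. Epha4 (an ephrin receptor of dendritic spines) differed by 0.73 with age in deficient mice (limma adjusted p = 0.0598), and Il1rapl1 (a synapse-organising receptor) by 0.22 in the averaged age difference (adjusted p = 0.119). The medians of these 2 lists lay between -0.08 and 0.10 in the 4 comparisons of single groups.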

How the data were processed

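Brain RNA was prepared with RNeasy columns and labelled with Cy3, per the labels' protocols. Spot intensities come from Agilent Feature Extraction 10.7.3.1, per the file headers; its processed intensity is background-subtracted and not scaled between arrays. The submitters' processing notes name limma without steps. The deposited value table holds log2 values that follow the order of the raw median intensities; it was read as quantile-normalized without background subtraction, which is inferred from the values, and served as an alternative only. Coordinates are those of the scanner files (NCBI37/mm9); exon and UTR annotation was not used here.

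Of 59305 non-control spots per array, 58.4 to 66.1% exceeded background clearly. Outlier flags removed 98 to 182 spots, and 0 were saturated. The array number limits the precision. Levels are log2 of the processed intensity minus the array's 75th percentile, with spots of a probe averaged. Probes had to exceed background clearly on every array of 1 or more groups (33071 probes did). Genotype and age came from the sample titles and the interchanged age tag. A means model of the 4 groups over 16 arrays was then fitted (limma 3.58.1, R 4.3.3) for 7 contrasts: genotype at either age, age in either genotype, the interaction, and averaged genotype and age. p-values measure the spread between mice. On simulated data for the young genotype comparison (33071 probes), the fit called 75% of probes changed by 1 log2 unit and 90% of those changed by 2, with 4.6% false calls.

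Levels on every array are given for each gene with a called probe and, in each role without one, for the probe of smallest p; lists of other pathway genes are given by counts and medians with their called genes or, with none, the 2 genes of smallest p. Exceptions are probes of Gria1, Gria3, Gria4, Grin1, Grin2b, Shank1, Shank3, Dlgap1, Dlg4, Grik2, Grik3, Slc17a6, Cacng3 and Nrgn, picked after their values were seen. The genes and lists were chosen with earlier results of these data known. All 38 symbols were found in the GRCm38 gene table, used for names only. Same-numbered replicates were checked for pairing: their deviations correlated between -0.42 and 0.25 (median 0.03) over 24 pairs of arrays, so the numbers were not used as pairs. Alternatives tried were normexp background correction, quantile normalization, the deposited table, other probe filters, 1 value per gene (brightest probe or mean), array weights, fits of 2 groups, blocks for replicate number and slide, and leaving out each array. Gaps between the probes of a gene and percentages of probes higher were added after the data were seen.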

Additional observations from a re-analysis of the deposited data

Results flagged for a closer look

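Of 68 sets of 4 arrays (17 probes in 4 groups) examined for an array far from the other 3, 3 had one, where chance gives about 1 in 20. Slc17a7 read 1.82 on young wild-type array 2 against 1.38 to 1.45 on the other 3. The bright Grik1 probe A_51_P282609 read -1.88 on young deficient array 1 against -1.12 to -1.06. The second Grin3a probe, A_52_P531731, read 0.31 on young deficient array 1 against 0.87 to 0.90. The 2 latter readings come from the array that stood apart over all probes. The genotype difference of Grik1 A_66_P131466 differed between the ages by 1.30 in the fitted interaction (limma adjusted p = 0.021), with deficient mice lower at 4 and higher at 18 months, and this was not called after normexp background correction or in the deposited table.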

How the results depend on the processing

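With 1, 1, 1, 2, 1, 3 and 1 probes called in the 7 comparisons (genotype at 4 and 18 months, age in wild type and in deficient mice, interaction, averaged genotype and averaged age), counts are small and few settings kept all of them, and quantile normalization did. With normexp the counts of calls were 0 for genotype at 18 months, wild-type age and the interaction (0.904, 0.2 and 0.142% of all probes). They were 1 for deficient age (1.24%) and 1 at 4 months (0.943%), which was not Gria2 A_65_P00930. In the deposited table the counts were 3 at 4 months (1.94% of all probes) and 0 at 18 months (1.5%), in wild-type age (0.348%) and in the interaction (0.272%). With no filter on dim probes they were 0 in all comparisons but genotype at 18 months. Over the 7 comparisons 0.0629 to 1.03% of all 55681 probes were called with that setting. Requiring all 16 arrays above background, the brightest probe of a gene or the mean of its probes left 0 at 18 months, in wild-type age and in the interaction, and the mean left 1 in averaged genotype (3.56% of all genes). Over all probes or genes these settings called 1.2 to 1.62% at 18 months and 0.289 to 0.43% in wild-type age. In the interaction it was 0.187 to 0.214%. Array weights, which gave young deficient array 1 a weight of 0.113, raised the counts to 8 at 4 months, 9 in deficient age, 2 in the interaction, 5 in averaged genotype and 4 in averaged age. The shares over all probes rose as well, to 7.66% at 4 months, 11.9% in deficient age and 1% in the interaction. They were 7.35% in averaged genotype and 5.76% in averaged age. Fits of only the 2 groups compared gave 0 at 4 months (0.327% of all probes), 0 at 18 months (1.28%) and 0 in wild-type age (0.257%). They gave 1 in deficient age (0.514%), where Grin2c was lost. With slide as a fixed term beside age, which equals genotype without the interaction, 0 was called in averaged age (0.798% of all probes). Replicate numbers did not pair the mice (4 of 16 arrays correlated best with their own number). With replicate number as a block 0 was called at 4 months (0.756% of all probes), 1 in deficient age (1.08%) and 0 in the interaction (0.124%). Homer2 was then lost in averaged genotype, which left 2 (adjusted p = 0.0514), where 2.35% of all probes were called. Leaving out 1 array gave 0 to 2, 1 to 1, 0 to 1, 0 to 2, 0 to 2, 1 to 3 and 0 to 1 calls. The share of probes higher stayed on its side of 50% in all settings, apart from genotype at 18 months (42.1 to 65.1%), deficient age (47.6 to 61.9%) and averaged genotype (47.4 to 69.8%). Leaving out 1 array it ranged from 52.4 to 73.0% at 4 months, 42.9 to 60.3% at 18 months, 76.2 to 87.3% in wild-type age, 47.6 to 61.9% in deficient age, 30.2 to 47.6% in the interaction, 54.0 to 68.3% in averaged genotype and 65.1 to 74.6% in averaged age. No called probe changed sign in any setting. Where a call was lost, the cause was not tested. Signal near background limits the Shank2, Grik1 and Grik3 probes that were not well above background on all arrays.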
